A study of Mus musculus with 16 samples.

Results

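Expression of 10 genes for fatty acid desaturation, elongation and activation was examined in RNA sequencing data of mouse mammary carcinoma cells. The genes were listed by name, as 4 families of enzymes, with earlier results of these data known. They were the delta-9 desaturases Scd1 and Scd2, the front-end desaturase family Fads1, Fads2 and Fads3, the elongases Elovl1, Elovl5 and Elovl6, and the long-chain acyl-CoA synthetases Acsl3 and Acsl4. All 10 were found among the 33072 genes of the deposited table. The cell lines 4T1, which is metastatic, and 67NR, which is not, arose from the same spontaneous BALB/c mammary tumor. Both were grown in serum-containing medium, and each was kept for 24 h with vehicle or with 15 µM CIX. CIX is an inhibitor of cytosolic phospholipase A2 alpha (cPLA2α), the enzyme that releases arachidonic acid from membrane phospholipids. The study describes CIX as a synthetic derivative of a polyunsaturated fatty acid. Whether a shift with CIX came from the inhibition or from the compound as a fatty acid was not tested. The 4 groups, 4T1 vehicle, 4T1 CIX, 67NR vehicle and 67NR CIX, held 4 biological replicates each. Each line stands for itself only, so that a difference between them cannot be assigned to metastatic ability.

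Mammalian cells make and remodel unsaturated fatty acids in the endoplasmic reticulum. The delta-9 desaturases turn saturated acyl-CoA into monounsaturated acyl-CoA, while the front-end desaturases and the elongases work in turn to convert dietary essential fatty acids into long polyunsaturated ones, arachidonic acid among them. Acyl-CoA synthetases activate free fatty acids for these reactions, and Acsl4 is known for its preference for arachidonic acid, the product that cPLA2α releases. Transcription of many of these genes is driven by the sterol regulatory element-binding protein SREBP-1c and by liver X receptors, and is reduced by polyunsaturated fatty acids.

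Libraries held between 21715700 and 29450629 estimated counts. Levels are given as CPM (counts relative to the library total) after TMM scaling over all 16 libraries, and differences as log2 fold changes with their standard error (SE) from limma-voom. Genes counted as called where the p-value, adjusted over all genes tested after Benjamini and Hochberg, was below 0.001, and a gene below a TPM (a level per unit of transcript length) of 1 in more than 3 samples of a comparison was not tested in it. Levels of different genes were compared only as TPM. Of the total variance, 82.4% lay on a principal component that separated the lines, and 7.03% on a second one along which CIX and vehicle libraries did not overlap in either line and lay farther apart in 4T1. The libraries matched their labelled cell type in part: the 6 epithelial markers Epcam, Cdh1, Krt7, Krt8, Krt18 and Krt19 summed to between 3460.3 and 3943 CPM in 4T1 vehicle libraries, to between 4101 and 4410.0 CPM in 4T1 CIX libraries and to between 1.32 and 6.38 CPM in 67NR libraries, so that 67NR cells, labelled as mammary carcinoma, lacked the defining epithelial transcripts. The 8 mesenchymal markers summed to more in each 67NR than in each 4T1 library. Adipocyte markers, of a cell type rich in Scd1 and Elovl6, summed to at most 1.20 CPM in any library. Of the immune and endothelial markers only Cd68, which encodes a lysosomal protein, was above 2.5 CPM in any library, and the leukocyte marker Ptprc reached at most 1.44 CPM. Markers also moved with CIX. Mesenchymal markers summed to between 2542 and 3359 CPM in 4T1 vehicle and to between 4377 and 5274 CPM in 4T1 CIX libraries. In 67NR they summed to between 6179.5 and 7130.4 CPM with vehicle and to between 9372 and 10307 CPM with CIX. Vim and Fn1 gave most of these sums. Of 4 tested in 4T1, Vim (log2 1.24) and Twist1 (0.92) were called, while Fn1 had 0.40 and Pdgfra -0.036. In 67NR limma-voom called 0 of 8 and DESeq2 called 2. There Pdgfra had 0.75, Vim 0.58, Fn1 0.37, Zeb1 0.25, Cdh2 0.10, Twist1 -0.12, Col1a2 -0.38 and Col1a1 -0.73. Of the 6 epithelial markers in 4T1 only Epcam was called, which fell (-0.78), while Cdh1 had -0.29, Krt19 0.68, Krt7 0.45, Krt8 0.43 and Krt18 0.14. Cd68 rose in both lines, by 1.25 on the log2 scale in 4T1 and 2.08 in 67NR. The part of these shifts in the values of the 10 genes was not tested.

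Scd2 was the most abundant of the 10 transcripts per unit length in 4T1 cells. Its mean level was 820.3 TPM in 4T1 vehicle cells, which ranked 174th of all genes. In 67NR vehicle cells Scd2 (267 TPM) and Scd1 (212 TPM) were the highest and lay close to each other. In 4T1 vehicle cells Scd1 followed Scd2 at 244 TPM, Fads1 lay at 199 TPM, Fads2 at 165 TPM, Elovl5 at 152 TPM and Acsl3 and Acsl4 at 116 TPM each, whereas Elovl6 and Elovl1 lay at 75.3 and 72.7 TPM and Fads3 at 30.2 TPM. Fads3 was near absent from 67NR cells, with a mean of 0.338 TPM with vehicle and 0.269 TPM with CIX. Summed over the 10 genes, the level was 982 ± 95.3 TPM (SD, n = 4) in 67NR vehicle, 1155 ± 55.0 in 67NR CIX, 1991 ± 259 in 4T1 vehicle and 1482 ± 96.2 in 4T1 CIX. The sum was thus highest in 4T1 vehicle cells, where each library (1679 to 2294 TPM) lay above each library of the other groups, and Scd2 gave much of that difference.

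**Figure D1:**
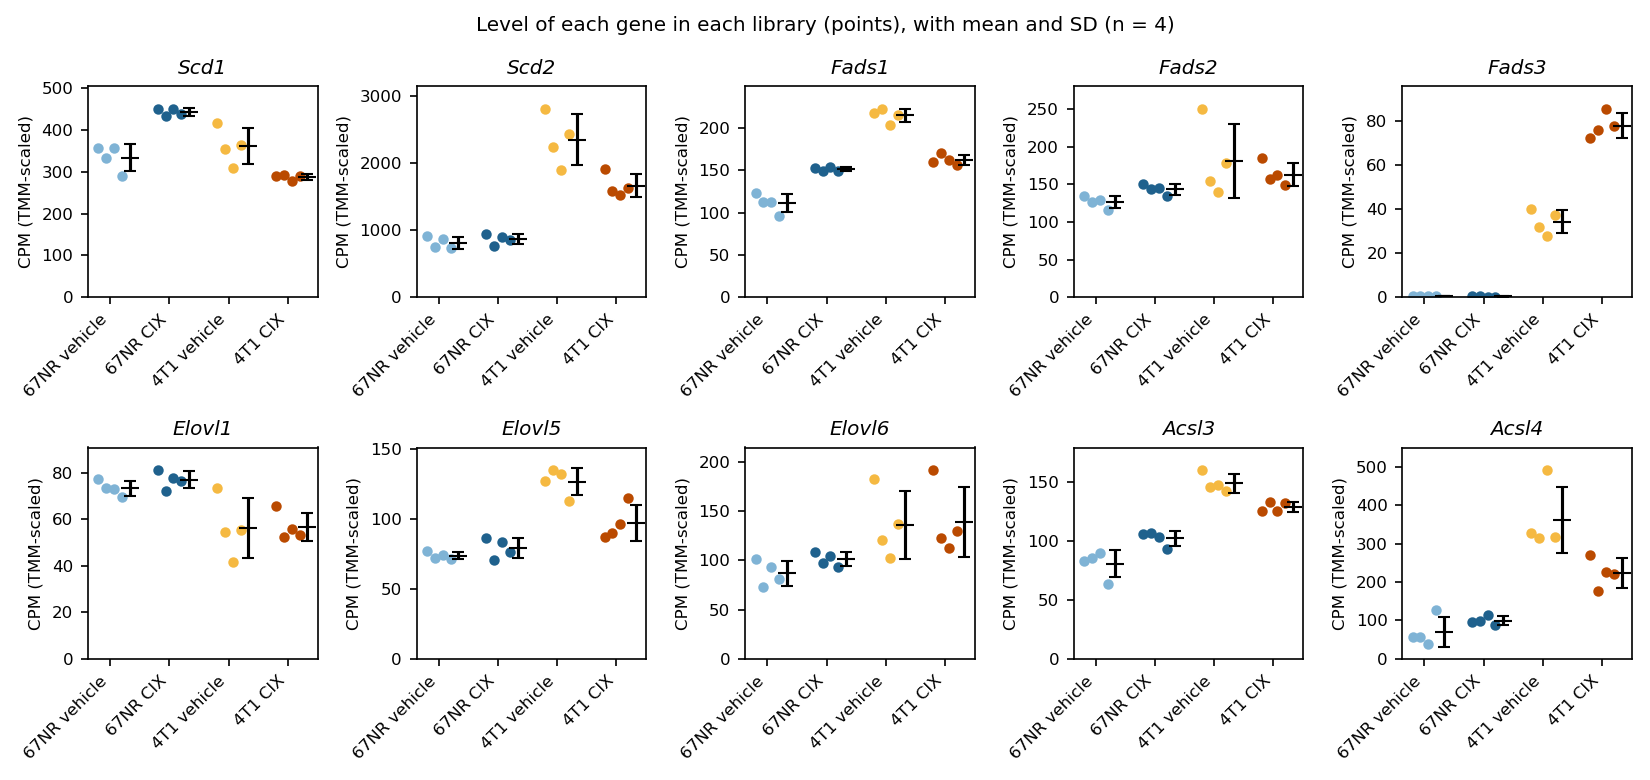
Level of each of the 10 genes in CPM after TMM scaling (vertical axis, from 0, a scale of its own in each panel) in the 16 libraries. Points are libraries in the 4 groups, and black bars are the mean and SD (n = 4). Fads3 lay below 0.6 CPM in the 67NR libraries and between 28.0 and 85.8 CPM in those of 4T1, and the points for Scd1 and Fads1 lie lower with CIX in 4T1 and higher with CIX in 67NR.

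Within families the lines differed in which gene supplied the transcripts. Scd2 made up 55.7% ± 1.40 (SD, n = 4) of Scd1 and Scd2 transcripts in 67NR vehicle cells and 77.0% ± 0.789 in 4T1 vehicle cells. With CIX the share was 50.1% ± 1.89 in 67NR and 74.8% ± 1.72 in 4T1. Fads3 made up 7.64% ± 0.483 of the front-end desaturase transcripts in 4T1 vehicle cells and 18.6% ± 1.57 in 4T1 CIX cells, but 0.163% ± 0.0440 and 0.106% ± 0.0393 in 67NR. Acsl4 gave 49.8% ± 5.53 of Acsl3 and Acsl4 transcripts in 4T1 vehicle cells against 25.7% ± 13.3 in 67NR vehicle cells. Among the elongases, Elovl1 held 41.0% ± 1.25 in 67NR vehicle and 24.0% ± 3.07 in 4T1 vehicle cells, while Elovl5 held 38.2% ± 0.843 and 51.2% ± 6.71. These shares are a description without a test, and they rest on the mean transcript length of each gene. With the longest transcript instead, the share of Scd2 was 68.3% in 67NR vehicle and 85.1% in 4T1 vehicle cells, and that of Acsl4 was 37.5% and 64.1%, so that the level of a share depends on the length used while the order of the lines was the same.

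**Figure D2:**
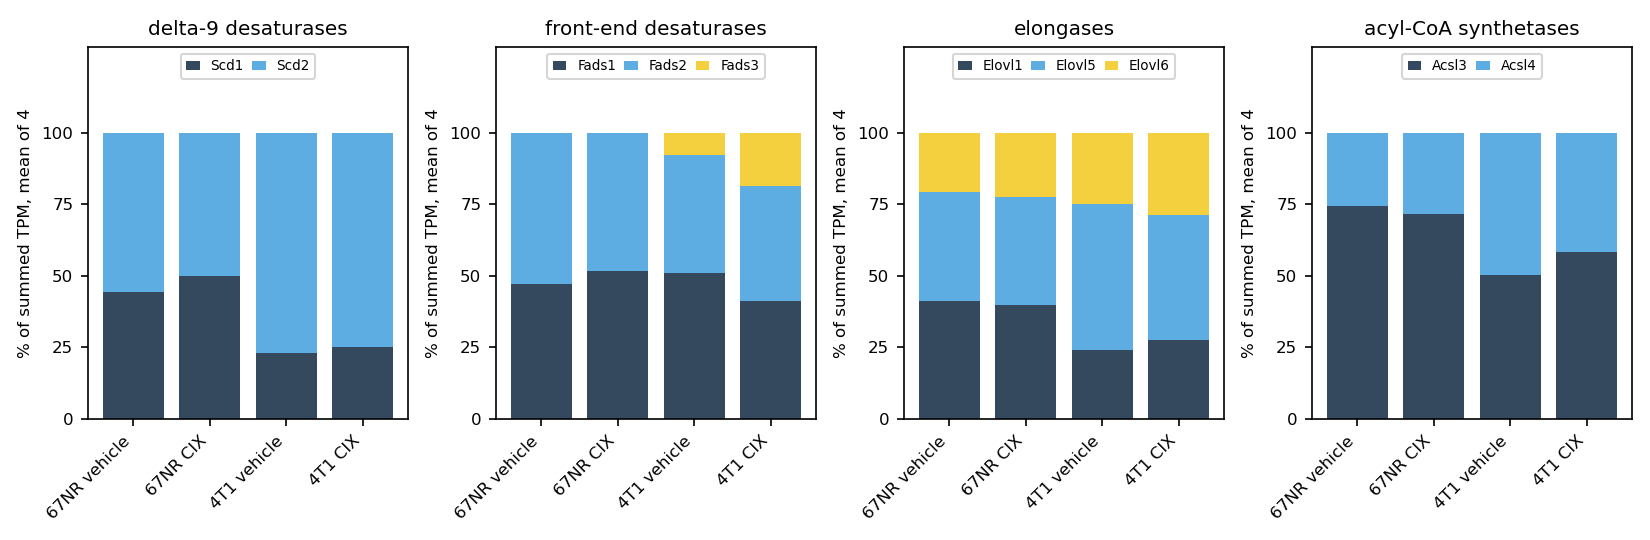
Share of each gene in the summed TPM of its family (vertical axis, percent, mean of 4 libraries) in the 4 groups. Scd2 takes 77.0% of its family in 4T1 vehicle and 55.7% in 67NR vehicle cells, and the part of Fads3 is visible in 4T1 only, where it is 7.64% with vehicle and 18.6% with CIX.

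First, the lines were compared without the inhibitor. With vehicle, 9 of the 10 genes were tested and 5 were called, all of them higher in 4T1 than in 67NR: Acsl4, Scd2, Fads1, Acsl3 and Elovl5. In the same comparison 40.0% of all 11043 genes tested were called, and 20.4% were called as higher in 4T1. The median log2 difference over the 9 genes was 0.77, against -0.010 over all genes tested. In 7 of the 9 genes the 4T1 libraries did not overlap those of 67NR, where 61.6% of all genes tested had no overlap.

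Of the 9 genes tested, Acsl4 had the largest difference. Its level was 327, 316, 492 and 317 CPM in the 4T1 vehicle libraries and 56.2, 56.1, 37.2 and 126 CPM in those of 67NR, in the order of their sample numbers. The groups did not overlap, but the 67NR library numbered 13 and the 4T1 library numbered 11 each stood well above the rest of its group. The difference was 5.74-fold (log2 2.52, SE 0.33, adjusted p = 1.14e-04), and leaving out each library in turn gave log2 values from 2.23 to 2.81, with 2.81 without the 67NR library and 2.41 without the 4T1 library. The call was lost in a limma-voom fit with a replicate block of 4 consecutive sample numbers (log2 2.50, adjusted p = 0.00139). That block was added after the data were seen. Acsl3, which encodes a synthetase found on lipid droplets and endoplasmic reticulum, was between 142 and 160 CPM in 4T1 and between 63.7 and 89.9 CPM in 67NR, a 1.85-fold difference (log2 0.89, SE 0.10, adjusted p = 5.86e-05).

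Scd2 lay between 1902 and 2809.9 CPM in 4T1 and between 726 and 913 CPM in 67NR, a 2.85-fold difference (log2 1.51, SE 0.13, adjusted p = 7.85e-06). Its paralog Scd1, from the same cluster on chromosome 19, was between 309.9 and 417 CPM in 4T1 and between 289 and 357 CPM in 67NR. The groups of Scd1 overlapped, and its log2 difference of 0.10 (SE 0.11) did not pass the test (adjusted p = 0.419). Fads1, the delta-5 desaturase that makes arachidonic acid, was between 204 and 223 CPM in 4T1 and between 96.5 and 123 CPM in 67NR, a 1.93-fold difference (log2 0.95, SE 0.08, adjusted p = 7.07e-06). Elovl5, which elongates polyunsaturated fatty acids, differed 1.71-fold (log2 0.77, SE 0.08, adjusted p = 2.29e-05).

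Fads2, the delta-6 desaturase, Elovl6, which elongates saturated and monounsaturated chains to C18, and Elovl1, which makes very long chains, were not called. Fads2 had a log2 difference of 0.47 (adjusted p = 0.0365), Elovl6 of 0.61 (adjusted p = 0.0157) and Elovl1 of -0.42 (adjusted p = 0.0370). Elovl1 alone of the tested genes had a lower mean in 4T1, and its groups overlapped. Fads3 was not tested here because its 67NR libraries fell below the filter on low values. Its level was 40.0, 32.1, 28.0 and 37.5 CPM in 4T1 vehicle libraries and 0.514, 0.267, 0.515 and 0.340 CPM in 67NR vehicle libraries, so that the groups lay far apart. Without the filter, its log2 difference was 6.32 (SE 0.32, adjusted p = 1.06e-07). The 67NR level is close to the 3 counts taken here as the smallest detectable level, which corresponded to at least 0.102 CPM and covers counting error only.

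**Figure D3:**
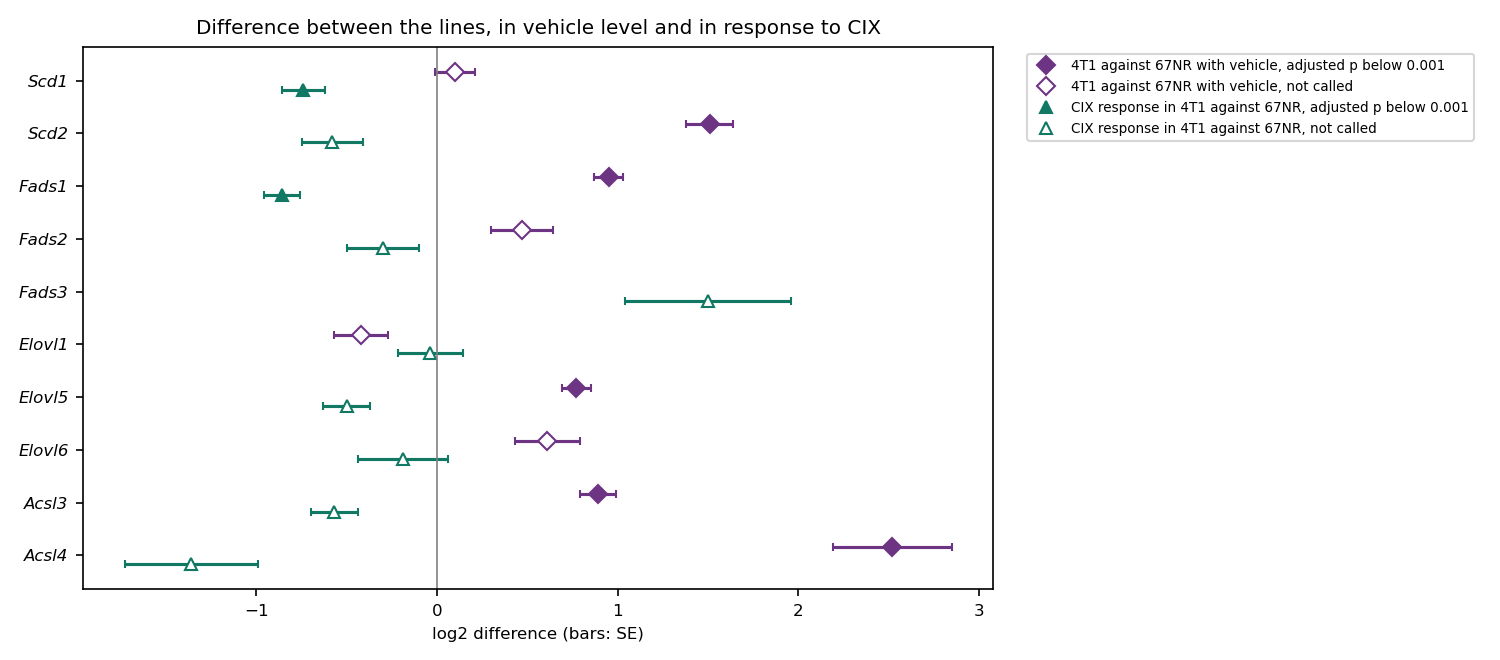
Log2 difference (horizontal axis) with its SE for each gene, between 4T1 and 67NR cells with vehicle (diamonds) and between the responses of the lines to CIX (triangles). Filled symbols have an adjusted p-value below 0.001. Acsl4 has the largest vehicle difference shown, at 2.52, and all called response differences, those of Scd1 (-0.74) and Fads1 (-0.86), lie below 0. Fads3 has no diamond because it was not tested between the vehicle groups, and its triangle rests on 67NR libraries below the filter.

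Next, the response to CIX was examined in the metastatic line. In 4T1 cells all 10 genes were tested and limma-voom called 1, Fads3, which rose. The background was 9.30% of 11665 genes called in either direction and 5.34% called as higher, so that 1 of 10 lies near that background. The median log2 fold change of the 10 genes was -0.28, against -0.007 over all genes tested. At a threshold of 0.05 another 6 genes passed, each with a lower level after CIX, while 42.7% of all genes tested passed that threshold in either direction and 20.8% as lower. With edgeR 1 of the 10 was called and with DESeq2 3, Fads3, Fads1 and Acsl4, where DESeq2 called 26.6% of all genes. Sample quality weights gave 3, Fads3, Scd2 and Fads1, among 2523 genes in all. A limma-voom fit of all 16 samples gave 2, Fads3 and Fads1, among 2679.

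Fads3 encodes a desaturase-like protein that is known to introduce a double bond into the sphingoid base of ceramides. Its level was 72.2, 76.1, 85.8 and 78.0 CPM in the 4T1 CIX libraries against 28.0 to 40.0 CPM with vehicle, with no overlap. The change was 2.26-fold (log2 1.17, SE 0.13, adjusted p = 1.95e-04). Leaving out each library in turn gave log2 fold changes between 1.07 and 1.25, and the call was lost without the 4T1 vehicle library numbered 7 (adjusted p = 0.00128). Of the Fads3 transcripts' 31-base words, 0.621% also occurred in Fads2, which bounds the sequence by which reads of the pair could be confused.

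The 3 Fads genes are neighbors on chromosome 19 of GRCm38, with Fads3 at 10041569 to 10060110 on the plus strand, Fads2 at 10062765 to 10101746 on the minus strand and Fads1 at 10182888 to 10196877 on the plus strand. Only 2654 bases separate the end of Fads3 from that of Fads2. Their log2 fold changes in 4T1 cells were 1.17 for Fads3, -0.13 for Fads2 (adjusted p = 0.561) and -0.42 for Fads1 (adjusted p = 0.00239). By limma-voom Fads3 alone of the 3 was called, while DESeq2 called Fads1 as well. The next expressed gene before Fads3 is Fth1, the ferritin heavy chain, with a log2 fold change of 1.28 (adjusted p = 0.00273), and the next after Fads1 is Fen1, a DNA replication nuclease, with -1.13 (adjusted p = 0.00532). These neighbors were chosen by position after the values of the Fads genes were known.

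The promoter windows of Fads3, the gene that CIX raised in 4T1 cells, and of Acsl4, the gene with the largest difference among those tested between the lines, are shown as the 250 bases before the RefSeq start (build GRCm38.p6, 5′ to 3′ on the strand of the gene). Capitals mark CCAAT boxes (CCAAT) and GC boxes (GGGCGG), read on both strands. The regions are chr19:10041298-10041547 on the plus strand for Fads3 and chrX:142390536-142390785 on the minus strand for Acsl4.
Fads3: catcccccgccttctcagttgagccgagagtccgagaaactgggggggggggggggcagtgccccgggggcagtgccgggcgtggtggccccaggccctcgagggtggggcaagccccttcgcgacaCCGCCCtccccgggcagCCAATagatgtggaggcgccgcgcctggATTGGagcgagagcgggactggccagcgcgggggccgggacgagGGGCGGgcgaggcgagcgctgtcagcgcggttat
Acsl4: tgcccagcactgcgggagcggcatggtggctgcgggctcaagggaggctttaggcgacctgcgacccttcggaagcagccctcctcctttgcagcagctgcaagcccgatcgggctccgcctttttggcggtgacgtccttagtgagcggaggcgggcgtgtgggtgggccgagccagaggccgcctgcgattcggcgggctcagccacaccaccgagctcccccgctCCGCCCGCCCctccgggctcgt
The Fads3 window held CCAAT boxes 106 and 78 bases before the start and GC boxes at 123 and 34 bases, while the Acsl4 window held 2 overlapping GC boxes at 22 and 18 bases. Windows were at hand for 7 of the 10 genes, Fads2, Fads3, Elovl1, Elovl5, Elovl6, Acsl3 and Acsl4. A GC box was found in 5 of the 7 and a CCAAT box in 4, where 33% and 33.8% of all 32536 windows held one. The Fads2 window lay with 243 of its 250 bases inside the annotated gene, that of Elovl6 with 31 bases, and 1 of the 2 Elovl1 windows lay wholly inside. Over the 5 genes with a window outside (at most 10 bases shared) each box was found in 4. A sterol regulatory element, searched as TCACNCCAC on both strands, was found in 0 of the 7, and in 1.04% of all windows. These are matches of letters and do not show that a factor was bound.

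The remaining 4T1 values were mostly lower with CIX. Fads1 lay at 159.9, 170.1, 162 and 156 CPM with CIX and between 204 and 223 CPM with vehicle. The groups did not overlap, and the log2 fold change of -0.42 (SE 0.08) missed the threshold in limma-voom (adjusted p = 0.00239). Fads1 was called by DESeq2 (adjusted p = 3.60e-07), in 1 limma-voom fit of all 16 samples (adjusted p = 1.33e-04) and with sample quality weights (adjusted p = 6.15e-04). Acsl4 had the largest of these differences, with 270.4, 176, 225 and 222 CPM with CIX against 316 to 492 CPM with vehicle, a log2 fold change of -0.71 (SE 0.17, adjusted p = 0.00918). Without the high 4T1 vehicle library numbered 11 the value for Acsl4 was -0.56 (adjusted p = 0.0117). With all libraries DESeq2 called Acsl4 (log2 -0.73, adjusted p = 7.55e-04).

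Scd2 had means of 1662 ± 175 CPM with CIX and 2345 ± 378 CPM with vehicle (SD, n = 4), with groups that overlapped (log2 -0.51, SE 0.13, adjusted p = 0.0102). With sample quality weights in limma-voom Scd2 was called (log2 -0.53, adjusted p = 7.61e-04). Scd1 lay at 289.9, 293, 278 and 289.6 CPM with CIX, below each of the vehicle libraries (log2 -0.34, SE 0.10, adjusted p = 0.0213). Elovl5 had a log2 fold change of -0.41 (adjusted p = 0.0146) and Acsl3 of -0.23 (adjusted p = 0.0486). Fads2, Elovl1 and Elovl6 had values near 0 with wide errors, 0.018 (SE 0.17) for Elovl1 and 0.023 (SE 0.21) for Elovl6, and both signs turned under other settings. In all, 5 of the 10 genes had CIX and vehicle groups without overlap, Fads3 above and Fads1, Acsl4, Acsl3 and Scd1 below, where 39.9% of all genes tested had none.

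Of the 9 genes tested with limma-voom none was called in 67NR cells, where 0.389% of all 11566 genes were called. At an unadjusted p below 0.05 there were 4 genes, Scd1, Fads1, Fads2 and Acsl3, edgeR called 0 and DESeq2 called 2, Scd1 and Fads1, where 32.8% of all genes had such an unadjusted p and edgeR called 0.398% and DESeq2 9.44%. The median log2 fold change of the 9 genes was 0.21, against -0.007 over all genes tested. An adjusted p below 0.05 was reached by 3 genes, Fads1, Scd1 and Acsl3, each higher with CIX, where 17.8% of genes passed in either direction and 8.52% as higher. The same 3 genes had groups that did not overlap, which held for 23.3% of all genes tested.

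Fads1 lay at 153, 149, 154 and 149 CPM in the 67NR CIX libraries and at 123, 113, 112 and 96.5 CPM in the vehicle libraries. All CIX libraries were thus above all vehicle libraries, with a log2 fold change of 0.43 (SE 0.07, adjusted p = 0.00457). Scd1 lay at 450.2, 433, 451 and 438 CPM with CIX and at 357, 332, 356 and 289 CPM with vehicle (log2 0.40, SE 0.07, adjusted p = 0.00580). Acsl3 had a log2 fold change of 0.34 (SE 0.10, adjusted p = 0.0495).

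Acsl4 in 67NR cells lay at 95.1, 99.3, 115 and 86.8 CPM with CIX against 56.2, 56.1, 37.2 and 126 CPM with vehicle. A single vehicle library, numbered 13, lay above all CIX libraries. The log2 fold change of 0.66 (SE 0.32) did not pass the test (adjusted p = 0.191), and without that library it was 1.01 (adjusted p = 0.00595), in a range of 0.40 to 1.01 when each library was left out. The same library also held the highest level of Pla2g4a, the gene of cPLA2α, at 324 CPM against 60.0 to 81.1 CPM in the other vehicle libraries. The 4T1 vehicle library numbered 11, the highest of its group for Acsl4, was likewise the highest for Pla2g4a, at 162 CPM against 58.7 to 94.4 CPM, which was noticed after the values were seen. Scd2, Elovl1 and Elovl5 had log2 fold changes of at most 0.086 in 67NR cells, and Elovl6 of 0.21 (adjusted p = 0.220). Fads3 was below the filter, with 0.424, 0.454, 0.228 and 0.218 CPM after CIX.

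**Figure D4:**
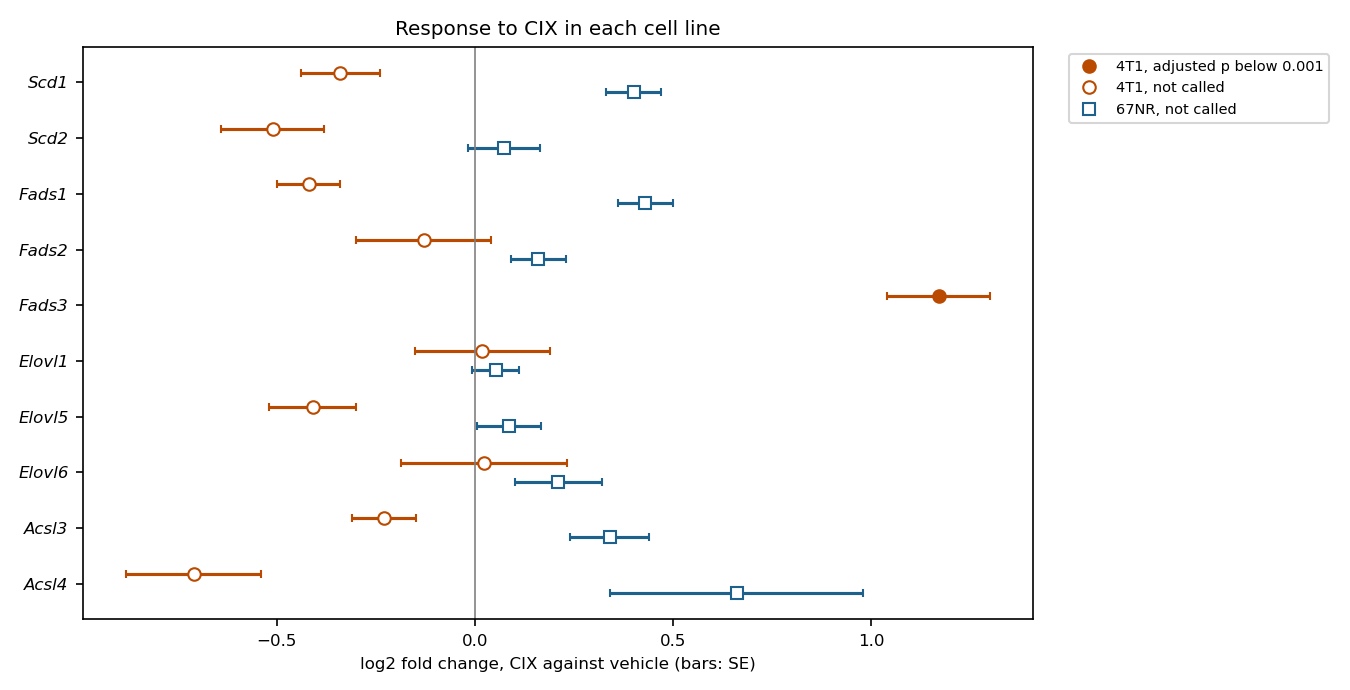
Log2 fold change of CIX against vehicle (horizontal axis) with its SE for each gene in 4T1 (circles) and 67NR cells (squares), n = 4 libraries a group. The filled circle is Fads3 in 4T1, at 1.17, the single value with an adjusted p below 0.001. Scd1, Scd2, Fads1, Fads2, Elovl5, Acsl3 and Acsl4 lie left of 0 in 4T1 and right of 0 in 67NR, with 67NR values of only 0.073 for Scd2 and 0.086 for Elovl5. Fads3 has no square because it was not tested in 67NR.

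Whether the 2 lines responded differently was tested with an interaction term over all 16 libraries. Of the 10 genes 2 were called, Fads1 and Scd1, both with a lower response in 4T1 than in 67NR. The background was 7.86% of 12618 genes called in either direction and 3.06% called as lower. The median difference over the 10 genes, Fads3 included, was -0.53, against -0.019 over all genes. An adjusted p below 0.05 was reached by 6 of the 9 genes other than Fads3, each lower, where 29.3% of all genes passed in either direction and 14.2% as lower.

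For Fads1 the difference in response was -0.86 on the log2 scale (SE 0.10, adjusted p = 2.31e-05), and leaving out any 1 of the 16 libraries kept its call, with values between -0.91 and -0.80. For Scd1 it was -0.74 (SE 0.12, adjusted p = 3.32e-04). This call held in 13 of the 16 leave-one-out fits and was lost without the 67NR vehicle library numbered 5 (adjusted p = 0.00106), the 67NR CIX library numbered 2 (0.00101) or the one numbered 10 (0.00109). Acsl3 (-0.57, adjusted p = 0.00424), Acsl4 (-1.36, adjusted p = 0.0111), Elovl5 (-0.50, adjusted p = 0.0113) and Scd2 (-0.58, adjusted p = 0.0155) had differences of the same sign that limma-voom did not call. DESeq2 called that of Acsl3 (-0.56, adjusted p = 4.30e-04), and limma-voom with sample quality weights called that of Acsl4 (-1.71, adjusted p = 2.21e-04). Without the 67NR vehicle library numbered 13, Acsl4 was called as well, with -1.70 (adjusted p = 3.22e-04), while leaving out any 1 library gave values from -1.70 to -1.12, and -1.21 without the 4T1 vehicle library numbered 11. No result is drawn for Fads3 here, since it entered this test through its 4T1 libraries while those of 67NR fell below the filter.

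With vehicle, Fads1 was 1.93-fold higher in 4T1 than in 67NR, and with CIX its means were 162 ± 5.81 and 151 ± 2.53 CPM. Scd1 was level between the lines with vehicle, at 361 ± 43.8 and 334 ± 32.0 CPM, and with CIX it was 287 ± 6.57 CPM in 4T1 and 443 ± 9.23 CPM in 67NR (SD, n = 4). The vehicle libraries enter both the comparison of the lines and the responses to CIX, so that the sign of the first and of the interaction are not independent of each other.

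The 10 genes also varied within groups, and in part together. Deviations from the group mean over the 16 libraries correlated with r = 0.92 between Fads2 and Elovl1 and between Scd2 and Elovl6, and with r = 0.83 between Scd1 and Scd2. Acsl4 had negative values to the other 9, from r = -0.74 to Acsl3, -0.73 to Fads1 and -0.71 to Scd1 up to -0.13 to Elovl6 and -0.01 to Elovl5. These correlations are descriptions over libraries that share depth and preparation. The 67NR vehicle library numbered 13 deviated by 1.01 for Acsl4, -0.32 for Acsl3, -0.19 for Fads1 and -0.20 for Scd1. The 4T1 vehicle library numbered 11 deviated by 0.46, -0.01, -0.08 and -0.21 for the same genes. The part of both libraries in the negative values of Acsl4 was not tested. The 4T1 vehicle library numbered 3 was the highest of its group for 7 of the 10 genes and the one numbered 11 the lowest for 7, with Fads2 at 251 and 139.5 CPM and Elovl6 at 183 and 102 CPM. In 67NR the vehicle library numbered 1 was the highest for 7 genes and the one numbered 13 the lowest for 7. Fads2 and Elovl6 in 4T1 vehicle cells therefore had an SD of 49.5 around 181 CPM and of 34.4 around 136 CPM, while Fads1 had an SD of only 8.22 around 215 CPM.

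**Figure D5:**
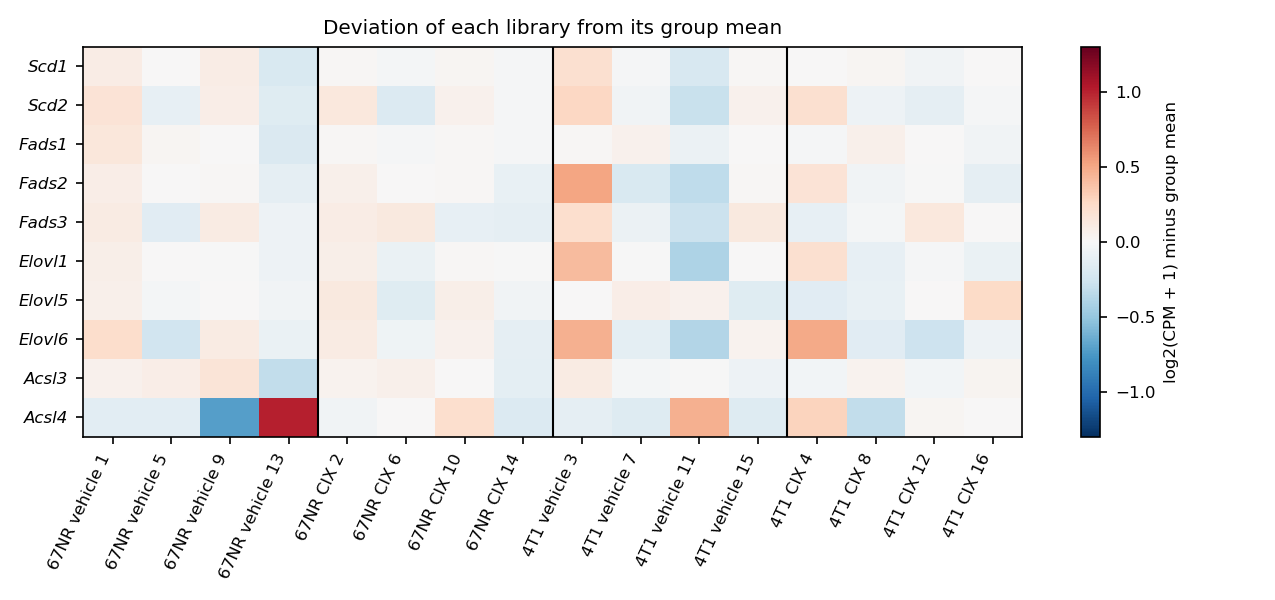
Deviation of each library (columns, named by group and sample number) from the mean of its group for each gene (rows), as log2(CPM + 1) minus the group mean in color. The 67NR vehicle library numbered 13 is high for Acsl4 and low for 7 of the other genes, and the 4T1 vehicle libraries numbered 3 and 11 stand apart in opposite directions for Fads2, Elovl1 and Elovl6.

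The other genes of the pathway were taken from 10 lists with 83 genes. With CIX in 4T1 cells 65 of them were tested, 3 were called as higher and 2 as lower, and in 67NR cells 62 were tested with limma-voom and none was called, where 20 had an unadjusted p below 0.05, edgeR called 0 and DESeq2 called 6, which were Acss2, Acly, Slc25a1, Srebf2, Ppard and Ptgs2. Over all genes 32.8% had such an unadjusted p in 67NR and DESeq2 called 9.44%, so that 20 and 6 of 62 lie near the background. In 4T1 cells DESeq2 called 20 of the 65, where it called 26.6% of all genes. Between the vehicle groups 61 were tested, 20 were called as higher in 4T1 and 9 as lower. In the interaction 69 were tested, 3 were called as higher and 2 as lower. The median log2 fold change over the tested genes of the lists was 0.026 in 4T1, 0.050 in 67NR and 0.34 between the lines, and -0.041 in the interaction. The shares called were 7.69% of the 65 in 4T1 and 7.25% of the 69 in the interaction, near the 9.30% and 7.86% of all genes tested. Between the lines 47.5% of the 61 were called, against 40.0% of all genes tested. There 20 of the 61 were called as higher in 4T1, against 20.4% of all genes, and the median of 0.34 stands against -0.010.

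Of 2 other elongases tested in 4T1 cells, Elovl7, an elongase of very long chains, rose from 9.09 ± 0.841 to 26.1 ± 5.55 CPM (SD, n = 4; log2 1.48, SE 0.17, adjusted p = 2.70e-04). Elovl7 was near absent from 67NR cells, at 0.453 CPM with vehicle, so that it shared with Fads3 both the difference between the lines and the rise with CIX. Of the 5 genes of the elongation cycle 1 fell in 4T1 cells. This was Hacd3, a 3-hydroxyacyl-CoA dehydratase, from 85.5 to 44.6 CPM (log2 -0.96, SE 0.09, adjusted p = 1.06e-04), and its response differed from that in 67NR by -0.81 (adjusted p = 1.65e-04). Between the vehicle groups Hacd1 (1.02), Hacd2 (0.87) and Hacd3 (1.01) were called as higher in 4T1 on the log2 scale. Of 7 other acyl-CoA synthetases tested in 4T1 cells 1 rose, Slc27a4, a fatty acid transport protein with synthetase activity, with a log2 fold change of 1.31 (SE 0.17, adjusted p = 3.77e-04). Its response differed from that in 67NR by 1.38 (adjusted p = 7.77e-05), and that of Acsbg1, the bubblegum acyl-CoA synthetase, by -1.61 (adjusted p = 6.57e-04). Between the vehicle groups Acsl5, Slc27a1 and Acsbg1 were called as higher and Acsl1 and Slc27a4 as lower in 4T1. Of those tested, Acsbg1 had the largest difference, 1.92 on the log2 scale (adjusted p = 6.51e-05), while Acsl6, which was not tested because of its 67NR level, lay at 26.6 CPM in 4T1 and 0.241 CPM in 67NR.

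Of the 5 other desaturases 2 to 4 were tested in a comparison, with 0 calls by limma-voom and by edgeR in each. Up to 2 of them had an unadjusted p below 0.05, and DESeq2 called 1 in 4T1 cells and 1 in the interaction. Scd3, which shares 5.84% of the 31-base words of Scd1 and 4.83% of those of Scd2, lay at 2.91 TPM in 67NR vehicle and 0.695 TPM in 4T1 CIX cells, far below both in TPM. The electron donors of the desaturases held 3 calls by limma-voom, all between the vehicle groups, while DESeq2 also called 1 of the 6, Cyb5r4, with CIX in 4T1 and in the interaction. Cyb5r3, the main cytochrome b5 reductase, was lower in 4T1, at 219 against 869 CPM (log2 -2.01, adjusted p = 4.87e-07), while Por (1.10) and Cyb5r4 (0.72) were higher.

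Of 8 fatty acid synthesis genes 3 were called between the vehicle groups, all higher in 4T1, where 40.0% of all genes tested were called and 20.4% as higher. With CIX limma-voom and edgeR called 0 of the 8 in either line, 1 had an unadjusted p below 0.05 in 4T1 and 3 in 67NR, and DESeq2 called as many, where the shares over all genes were 51.1% and 32.8% for the unadjusted p and 26.6% and 9.44% for DESeq2. Slc25a1, the mitochondrial citrate carrier, was at 203 against 15.3 CPM (log2 3.71, adjusted p = 9.36e-08), Fasn, the fatty acid synthase, at 621 against 309.8 CPM (log2 0.97, adjusted p = 7.17e-04) and Acss2, which makes acetyl-CoA from acetate, at 87.7 against 44.9 CPM (log2 0.96, adjusted p = 2.50e-05). With CIX, Fasn had log2 fold changes of 0.20 in 4T1 (adjusted p = 0.535) and 0.21 in 67NR (adjusted p = 0.218). Of the thioesterases and acyl-CoA binding proteins 4 of 7 tested were called as higher in 4T1 with vehicle, beside the same 20.4% of all genes. These were Acot9 (1.46), Acbd3 (1.24), Acbd5 (1.18) and Acot13 (1.02).

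Of 16 regulators tested, 8 were called between the vehicle groups, 4 in each direction, where 40.0% of all genes tested were called. Srebf1, which encodes SREBP-1, was 2.38-fold higher in 4T1 (log2 1.25, SE 0.08, adjusted p = 1.80e-06). The largest values among the called regulators were those of Mlx (2.03), Nr1h3, the liver X receptor alpha (-1.73), Srebf1 and Rxra (-1.20), the retinoid X receptor alpha, a partner of liver X receptors. With CIX in 4T1 cells Rxra rose from 30.8 to 65.6 CPM (log2 1.07, SE 0.12, adjusted p = 2.05e-04) and Nfyc, a subunit of the CCAAT-binding factor NF-Y, fell from 53.8 to 24.6 CPM (log2 -1.13, SE 0.17, adjusted p = 9.12e-04). The response of Rxra differed from that in 67NR by 0.91 (adjusted p = 5.34e-04). Srebf1 had a log2 fold change of -0.48 in 4T1 (adjusted p = 0.00469) and -0.15 in 67NR (adjusted p = 0.303), and Srebf2 of 0.20 (adjusted p = 0.238) and 0.44 (adjusted p = 0.00709), none of which was called by limma-voom, while DESeq2 called 5 of the 16 regulators in 4T1, Rxra, Nfyc, Mlx, Scap and Srebf1, and 2 in 67NR, Srebf2 and Ppard. Insig1, a sterol-sensing retention protein, had -0.10 in 4T1 (adjusted p = 0.822) and 0.15 in 67NR (adjusted p = 0.561).

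For the incorporation of polyunsaturated chains into phospholipids limma-voom called 1 gene, Lclat1, which was lower in 4T1 with vehicle (log2 -2.66, adjusted p = 3.44e-04). With CIX in 4T1 5 of the 6 genes tested had an unadjusted p below 0.05, and DESeq2 called 3 of them, Agpat3, Lpcat2 and Lclat1, where 51.1% and 26.6% of all genes tested passed the same rules. Pla2g4a itself had log2 fold changes of 0.61 in 4T1 (SE 0.30, adjusted p = 0.131) and 0.28 in 67NR (SE 0.48, adjusted p = 0.726). It did not pass between the vehicle groups either (-0.27, SE 0.54, adjusted p = 0.677). Both 67NR values include the vehicle library numbered 13, at 324 CPM. The other vehicle libraries lay between 60.0 and 81.1 CPM in 67NR and between 58.7 and 162 CPM in 4T1. Among the genes that use arachidonic acid, the cyclooxygenase Ptgs2 was higher in 4T1 with vehicle (log2 2.44, adjusted p = 4.87e-07) and Ptgs1 was lower (log2 -2.28, adjusted p = 8.50e-08). With CIX limma-voom and edgeR called 0 of the 4 genes tested in either line, 2 had an unadjusted p below 0.05 in each, and DESeq2 called Ptgs1 and Ptgs2 in 4T1 and Ptgs2 in 67NR. The log2 fold change of Ptgs2 was 0.64 in 4T1 (adjusted p = 0.00483) and 1.57 in 67NR (adjusted p = 0.00473), and that of Ptgs1 was 0.58 (adjusted p = 0.00110) and -0.26 (adjusted p = 0.0352). The response of Ptgs1 differed between the lines by 0.84 (adjusted p = 4.70e-05).

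Finally, the genes most like each of the 10 over the 16 libraries were named by the Pearson correlation of log2(CPM + 1), as a description. Fads3 ran most closely with Echdc2 (r = 0.999), Perp and Amigo2, and Scd2 with Slc16a1 (r = 0.992), Ppip5k2 and Tnfrsf19. Fads1 was most like Mex3d (r = 0.971), Hmox1 and Mllt11, and Scd1 was most like Trib1 (r = 0.920), Nsdhl and Eps8l3. Elovl5 was nearest to Utp18 (r = 0.972), Elovl1 to Pofut2 (r = 0.954), Elovl6 to Saa3 (r = 0.932), Fads2 to H13 (r = 0.934), Acsl3 to St6gal1 (r = 0.957) and Acsl4 to 4930523C07Rik (r = 0.960). High values are common for any gene that differs between the lines, because the 16 libraries fall into 2 clusters.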

How the data were processed

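RNA of 4T1 and 67NR cells was sequenced from 16 strand-specific libraries on 1 flow cell. The authors quantified the reads with Salmon (version 0.12 per the labels) on the mouse Ensembl GRCm38 transcripts, combined transcripts of a gene with tximport, and deposited the resulting estimated counts, which are not normalized. The submitters' processing notes give the build as GRCh38, but the gene identifiers of the table are those of mouse. Of 33072 genes 32911 had an entry in GENCODE M21, which gave symbols, positions and transcript lengths. Estimated counts are shared out by the authors' tool between similar transcripts, so words of 31 bases that members share with other genes were counted.

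Values were rounded to whole counts, and TPM was approximated with the mean transcript length of each gene. A gene was left out of a comparison where more than 3 of its samples had a TPM below 1, for the interaction only if so in both lines. The test was limma-voom with TMM scaling (limma 3.58.1, edgeR 4.0.16, R 4.3.3) and a Benjamini-Hochberg adjusted p below 0.001. The test, the filter and the threshold follow the methods of the study, which name neither the scaling nor the samples of each fit. The effect of CIX was tested over the 8 samples of a line, the difference of the lines over the 8 vehicle samples, and the responses with an interaction term over 16 samples. The fit was tested on simulated data. Alternatives were edgeR's quasi-likelihood test, DESeq2 1.42.0, other scaling, filters, weights, samples and thresholds, and leaving out each library. Groups follow the labels, which do not say whether the biological replicates came from separate cultures, so that p-values measure the spread between these samples.

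The 10 genes, the gene lists and the rule for naming genes were chosen with earlier results of these data known. Named were the 10 genes in all comparisons, up to 4 called genes of each list with the largest log2 fold change, Pla2g4a, Srebf1, Srebf2 and Insig1, and for each of the 10 up to 3 genes with the highest correlation. Named beyond this rule were all acyl-CoA synthetases called between the lines, Acsl6, Scd3, the cell type markers, the neighbors of the Fads genes and genes that DESeq2 called. Promoter windows came from RefSeq (GRCm38.p6).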

Additional observations from a re-analysis of the deposited data

Results flagged for a closer look

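Acsl4 in the 4T1 vehicle library numbered 11 was at 492 CPM, where the other 3 libraries of its group lay between 316 and 327 CPM. Its gap to the nearest library was 0.937 of the group's range, above Dixon's critical value for 4 samples at the 95% level. It was the single such value in 40 combinations of gene and group, where chance would give 2.0.

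For Fads1 and Scd1 the response to CIX differed between the lines in the interaction test. The difference was -0.86 on the log2 scale for Fads1 (adjusted p = 2.31e-05) and -0.74 for Scd1 (adjusted p = 3.32e-04). In both genes all 4 CIX libraries lay below all vehicle libraries in 4T1 and above them in 67NR.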

How the results depend on the processing

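Every call of the 10 genes kept its direction under the alternatives run, and signs turned only for values that had not been called. At a threshold of 0.05, 7 of the 10 genes and 4980 genes in all passed with CIX in 4T1, 3 and 2059 in 67NR, 8 and 7450 between the vehicle groups and 7, Fads3 included, and 3697 in the interaction. DESeq2 called 3 of the 10 and 3094 in all in 4T1, 2 and 1045 in 67NR, and 3 and 1980 in the interaction. Sample quality weights gave 3 and 2523 in 4T1, 247 in all in 67NR, and 3 and 1914 in the interaction. All 16 samples in one fit gave 2 and 2679 in 4T1 and 1 and 151 in 67NR. The cause of these differences was not tested. The log2 fold change of Elovl1 in 4T1 was -0.006 with edgeR, -0.013 with DESeq2, -0.042 without scaling and -0.016 with weights, and that of Elovl6 was -0.036 without scaling and -0.023 with weights.

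Leaving out 1 library gave 0 to 1 of the 10 genes called in 4T1, where the call of Fads3 was lost without vehicle 7, and 287 to 1051 genes in all, against 1085. That count was 287 without vehicle 7, 353 without CIX 8, 409 without vehicle 15, 410 without CIX 16, 539 without CIX 12, 590 without vehicle 11 and 721 without vehicle 3. In 67NR it was 0 to 69, against 45, with 0 without vehicle 5, vehicle 9, CIX 6, CIX 10 or CIX 14, 2 without vehicle 1, 16 without vehicle 13 and 69 without CIX 2. In the interaction 1 to 3 of the 10 genes were called, with Scd1 lost without 67NR vehicle 5, CIX 2 or CIX 10 and Acsl4 gained without 67NR vehicle 13, and 651 to 1066 genes in all, against 992, the lowest without 4T1 vehicle 7. Log2 fold changes with CIX in 4T1 ranged from -0.25 to 0.037 for Fads2, from -0.12 to 0.16 for Elovl1 and from -0.14 to 0.18 for Elovl6. The interaction of Elovl1 ranged from -0.17 to 0.10, and Scd1 between the vehicle groups from -0.007 to 0.22. With the longest transcript in place of the mean length, the share of Scd2 was 68.3% in 67NR vehicle, 63.3% in 67NR CIX, 85.1% in 4T1 vehicle and 83.6% in 4T1 CIX, and that of Acsl4 was 41.9%, 64.1% and 56.2% in the last 3 of these groups.

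The labels give no pairing, as no sample number occurs in more than 1 group. Since each library numbered 1 to 4 was the highest of its group for 5 to 7 of the 10 genes, a replicate block of 4 consecutive numbers was added after the data were seen. It called 0 genes in 67NR, where limma-voom without the block called 45, and 2918 between the vehicle groups, where Acsl4 (log2 2.50, adjusted p = 0.00139) was lost, and it changed no other call of the 10 genes. The labels do not say that these numbers mark sets.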
